A study of Mus musculus with 24 samples.

Results

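The immediate early genes described here are 10 genes: Fos, Fosb, Junb, Egr1, Nr4a1, Npas4, Arc, Ier2, Dusp1 and Btg2. They were taken by symbol from the gene count tables, in which all 10 were among the 22609 genes listed. All 10 passed the filter on low counts in each tissue when its groups were fitted together, Npas4 in paw only through agonist libraries. RNA sequencing of polyadenylated RNA had been done on hind paw punch biopsies, L3 to L5 dorsal root ganglia (DRG, where the cell bodies of the paw's sensory neurons lie) and lumbar spinal cord. The mice were male, of the strain labelled C57, and 8 to 12 weeks old, with no genetic alteration named in the labels. All groups had received antibody into the plantar side of the hind paw at 10 µg per injection. Control mice received IgG and were sampled 1 day later. Treated mice received an agonist antibody against the lymphotoxin beta receptor (LTβR), and were sampled 1 day after 1 injection or, in the group called day 6, after 2 injections. The interval of the day 6 group is uncertain: by the sample titles it ran from the opening injection, and by the design text it followed both injections. Paw and DRG had 3 control, 3 day-1 and 3 day-6 libraries. Spinal cord had 3 day-1 and 3 day-6 libraries, so in this tissue only day 6 could be set against day 1, and the 2 days differ in the number of injections as well as in time. Controls were sampled on day 1 only, so a day-6 difference from control also includes later sampling and a further injection.

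Immediate early genes are transcribed within minutes of a stimulus, without a need for new protein, when kinases activate transcription factors that are already bound near their start sites, such as CREB and serum response factor. Their mRNAs are short-lived, so a level measured in tissue mostly reflects recent transcription. In sensory and spinal neurons Fos and Egr1 are widely used as markers of recent activity, and in skin the same genes respond to wounding and growth factors. Fos, Fosb and Junb encode subunits of the AP-1 transcription factor, Egr1 a zinc finger factor, Nr4a1 an orphan nuclear receptor and Npas4 a factor that is induced mainly in neurons by calcium. Arc encodes a synaptic protein that drives the removal of AMPA receptors, and Ier2 a small nuclear protein. Dusp1, a phosphatase that switches off MAP kinases, and Btg2, which promotes removal of poly(A) tails and slows proliferation, act as brakes.

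The start-site sequences are shown as a description of the genes. CREB activity was not measured here, and a link between these sequences and the variation between libraries was not tested. RefSeq start-site windows of the GRCm38.p6 build, from 250 bases before to 50 bases after the start, were searched for 7 of the 10 genes. Egr1, Arc and Ier2 were not searched, so the counts below do not cover them. The core of the cyclic AMP response element (CRE), the letters TGACG on either strand, was present in 7 of the 7 windows, against 20.8% of 32851 mouse windows of the same length. The whole palindrome TGACGTCA, which contains that core on both strands, was present in 2 of 7, Btg2 and Dusp1, against 1.79%. The CArG box, the serum response factor motif, had no match in the 7 windows, against 1.63% of all windows. Egr1, left out of the search, could not add to this count, so it does not describe the members as a whole. Sites outside these windows, or differing in a letter from the strict motif, were not sought. The absence of a match therefore does not show that these genes lack such sites. The windows of all genes were not matched to those of the members for base composition, which also affects how often such letters occur. A match is a description of the letters and not of a bound factor. The 250 bases before the start are printed for Fos and Dusp1, the pair that varied most closely in paw, for Fosb, which shared much of that variation, and for Npas4, whose level differed most between tissues. They lie at chr12:85473640-85473889 on the plus strand, chr17:26508473-26508722 on the minus strand, chr7:19310046-19310295 on the minus strand and chr19:4989972-4990221 on the minus strand, and capitals mark TGACG or its reverse complement CGTCA.
Fos: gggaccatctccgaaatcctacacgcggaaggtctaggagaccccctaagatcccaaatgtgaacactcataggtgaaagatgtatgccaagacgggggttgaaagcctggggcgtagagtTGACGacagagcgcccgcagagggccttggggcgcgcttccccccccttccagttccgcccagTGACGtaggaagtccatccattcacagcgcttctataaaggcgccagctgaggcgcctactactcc
Dusp1: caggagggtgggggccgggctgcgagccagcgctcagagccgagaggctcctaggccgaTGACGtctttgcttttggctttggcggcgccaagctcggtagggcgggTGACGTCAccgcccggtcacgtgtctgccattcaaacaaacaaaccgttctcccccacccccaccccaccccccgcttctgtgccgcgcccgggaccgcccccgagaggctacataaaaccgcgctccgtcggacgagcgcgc
Fosb: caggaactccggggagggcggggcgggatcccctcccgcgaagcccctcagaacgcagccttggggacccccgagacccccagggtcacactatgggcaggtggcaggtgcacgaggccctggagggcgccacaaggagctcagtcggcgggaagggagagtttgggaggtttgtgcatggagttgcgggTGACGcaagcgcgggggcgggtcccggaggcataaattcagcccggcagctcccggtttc
Npas4: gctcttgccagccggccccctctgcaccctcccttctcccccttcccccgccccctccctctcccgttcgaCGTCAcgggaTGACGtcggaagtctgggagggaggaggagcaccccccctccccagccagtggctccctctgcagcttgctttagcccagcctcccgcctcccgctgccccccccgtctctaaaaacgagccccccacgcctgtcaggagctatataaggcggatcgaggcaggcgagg
In Fos the matches began 129 and 66 bases before the start, in Fosb 60 bases before it, in Dusp1 191, 143 and 140 bases before it, and in Npas4 179 and 169 bases before it. The adjoining matches in Dusp1 are the 2 strands of 1 palindrome.

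Each library held between 15685843 and 41037458 reads within genes, and 16987 to 17643 genes were detected. Marker genes followed the labelled tissues, with 16 sensory neuron markers summing to 9749 to 11436 CPM (read counts scaled to the size of the library) in DRG and 12 spinal neuron markers to 4660 to 5818 CPM in cord. In paw, 10 basal keratinocyte markers summed to 5779 to 10863 CPM. Paw control 1 stood apart, since its 18 skeletal muscle genes summed to 304 CPM, while the remaining paw libraries held 7141 to 52162 CPM. In DRG control 1, 31.5% of reads fell in no annotated feature, a share that lay between 13.1 and 13.8% in the remaining DRG libraries. Whether the numbered samples of a group came from separate animals is not stated, so the p-values reflect the spread among the samples given, which may be technical. Junb overlaps Prdx2, and Dusp1 overlaps Ergic1, on the opposite strand in the GENCODE M21 annotation, and the strand setting of the counting was not given, so reads of these overlaps cannot be told apart.

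Levels per length, as CPM divided by the exon length in kilobases (RPKM), put different members first in each tissue. In paw the order of median RPKM was Dusp1 at 71.6, Junb at 68.2, Ier2 at 57.1, Btg2 at 44.2, Fos at 33.7, Egr1 at 19.2, Nr4a1 at 18.3, Fosb at 5.36, Arc at 1.07 and Npas4 at 0.0584 (n = 9 libraries). The ranges of neighbours in that order overlapped at every step except the last, from Arc to Npas4. In DRG Nr4a1 led with a median of 27.2 RPKM and a range of 17.2 to 28.7, above the range of Junb, which came next at 7.26 to 12.1 RPKM. Below it in DRG came Dusp1 at 8.49, Egr1 at 6.33, Ier2 at 5.30, Btg2 at 5.14, Fos at 3.85, Arc at 2.15, Fosb at 0.315 and Npas4 at 0.142 (median RPKM, n = 9), and the ranges did not overlap between Fos and Arc or between Arc and Fosb. In cord Egr1 at 14.6, Arc at 13.9 and Fos at 11.8 led, with overlapping ranges, followed by Dusp1 at 8.95, Nr4a1 at 8.57, Btg2 at 6.82, Junb at 4.93, Ier2 at 4.69, Npas4 at 2.87 and Fosb at 0.399 (median RPKM, n = 6). The ranges of Ier2 and Npas4, and of Npas4 and Fosb, did not overlap in cord.

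The members therefore ranked differently by tissue, although each tissue was normalised on its own and levels were not tested between tissues. Npas4 had 3 to 14 reads per library in paw and 11 to 29 in DRG, against 211 to 336 in cord, so its paw and DRG values carry a large counting error. The CPM of Arc was 40.5 to 45.8 in cord, 5.41 to 7.76 in DRG and 0.972 to 15.3 in paw. Junb, Fosb, Ier2, Dusp1 and Btg2 had CPM ranges in paw that lay wholly above those in DRG and cord. In whole tissue, a change in the share of expressing cells and a change in RNA per cell cannot be told apart, and this holds for every result below.

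**Figure D1:**
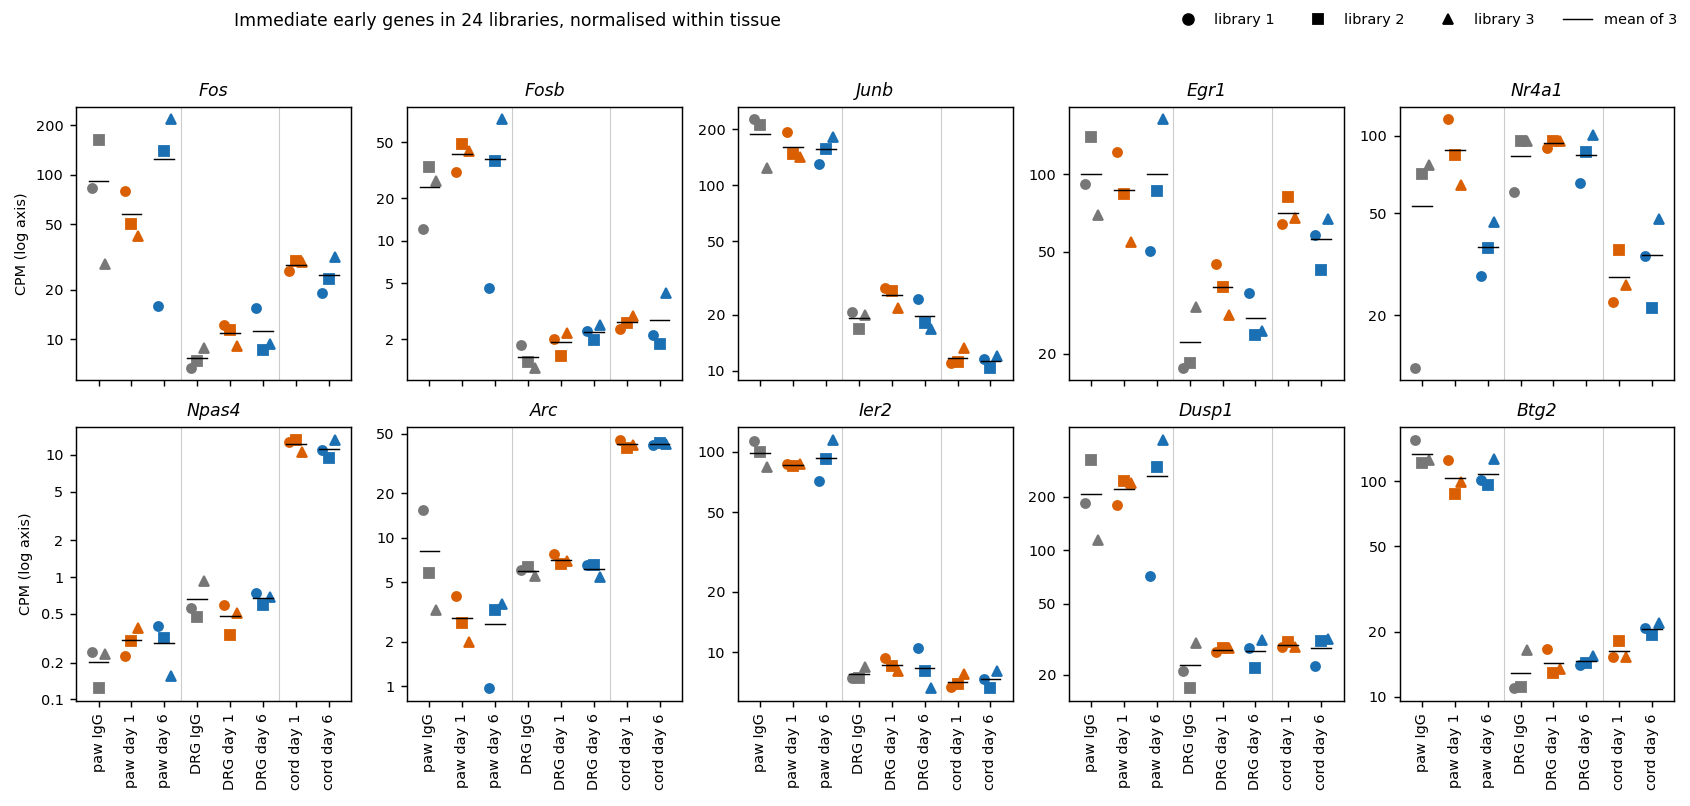
CPM of each gene on a log axis (its scale differs between panels) in the 24 libraries, by tissue and group, with grey for IgG control, orange for day 1 and blue for day 6; symbols give the library number and bars the group mean of 3. CPM were normalised within each tissue. The widest scatter within a group was in paw, where Fosb at day 6 ran from 4.66 to 73.1 CPM, while Arc in cord stayed between 40.5 and 45.8 CPM.

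The paw comparisons asked whether the injected skin held more or less immediate early mRNA 1 day after the agonist and at day 6. With the quasi-likelihood test of edgeR, adjusted by Benjamini-Hochberg over all genes, none of the 10 members passed a threshold of 0.05 at day 1 against control, where 0.00654% of 15287 genes did, or at day 6 against control, where 0.706% did, or at day 6 against day 1, where 1.03% did. DESeq2 and limma voom also called 0 members in the 3 comparisons, and the number of members at an unadjusted p under 0.05 was 1, 1 and 0, where 10.6%, 9.74% and 14% of all genes had one. The largest log2 fold changes were in Arc against control, negative on both days, and in Nr4a1 from day 1 to day 6, also negative, and neither passed the test.

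Among the AP-1 genes, Fos was at 83.1, 162 and 28.6 CPM in control libraries 1, 2 and 3, at 79.2, 50.5 and 42.4 CPM at day 1, and at 15.9, 140 and 217 CPM at day 6. The day-6 group held both the lowest and the highest Fos value of the tissue, so the groups overlapped throughout. Its log2 fold change against control was -0.67 ± 0.92 (SE) at day 1, with an adjusted p of 0.749, and 0.45 ± 0.91 at day 6, with an adjusted p of 0.952, both from edgeR. With each of the 6 libraries left out in turn, the day-6 value of Fos ranged from -0.22 to 1.15. Fosb showed the same wide spread, with 12.2, 33.4 and 26.4 CPM in controls, 31.0, 49.0 and 43.8 CPM at day 1 and 4.66, 36.6 and 73.1 CPM at day 6. Day-6 library 1 was again the lowest and day-6 library 3 the highest. Junb varied less, from 124 to 227 CPM over the 9 libraries, with log2 fold changes of -0.22 ± 0.23 at day 1 and -0.27 ± 0.23 at day 6 (edgeR adjusted p 0.684 and 0.828).

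Egr1, the zinc finger factor, was at 91.8, 140 and 69.2 CPM in paw controls, 122, 83.4 and 54.4 CPM at day 1 and 50.4, 86.2 and 164 CPM at day 6. Its groups overlapped, and day-6 libraries 1 and 3 were again the lowest and the highest of the tissue. The nuclear receptor gene Nr4a1 was at 12.5, 71.2 and 76.7 CPM in controls, 116, 84.1 and 64.2 CPM at day 1 and 28.3, 36.5 and 46.2 CPM at day 6. All 3 day-6 values lay below all 3 day-1 values, which made Nr4a1 the 1 member of 10 whose groups did not overlap, where 9.57% of all genes were lower in the same way. Between the days Nr4a1 differed by -1.25 ± 0.61 on the log2 scale (edgeR adjusted p = 0.410), and from -1.44 to -0.75 over 13 alternative settings, none of which brought the adjusted p under the threshold. Against control no member had groups that did not overlap, where 15% of genes did at day 1 and 14.1% at day 6.

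Paw control 1, the library with little skeletal muscle RNA, held the lowest Nr4a1 value of the tissue. With that library left out, Nr4a1 was at -0.96 ± 0.27 at day 6 against control, compared with -0.53 ± 0.61 with it, and at 0.27 ± 0.27 at day 1, compared with 0.72 ± 0.61. Neither passed the edgeR threshold. For skeletal muscle genes in paw, 18 of 18 tested had a negative log2 fold change from day 1 to day 6 with 0 called, a median log2 fold change of -1.14 and summed levels of 7141 to 28603 CPM at day 6 against 18829 to 52162 CPM at day 1. With the muscle score as a covariate the day-6 against day-1 difference of Nr4a1 was -0.75 ± 0.27.

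Arc, the synaptic gene, was at 15.3, 5.80 and 3.26 CPM in paw controls, 4.07, 2.65 and 1.99 CPM at day 1 and 0.972, 3.26 and 3.60 CPM at day 6. The highest value came from control 1 and the groups overlapped on both days. Against control Arc was at -1.48 ± 0.65 on the log2 scale at day 1 (edgeR unadjusted p = 0.0499, adjusted p = 0.469) and -1.64 ± 0.65 at day 6 (unadjusted p = 0.0341, adjusted p = 0.443). Without paw control 1, the library with 304 CPM of muscle RNA, the values for Arc were -0.61 and -0.75, and with the muscle score as a covariate they were -0.59 and -1.15. Markers of other cell types in the biopsies also differed between these groups. Macrophage genes were positive for 12 of 12 at day 6 against control, with 8 called, and summed to 911 to 1468 CPM at day 6, 288 to 467 CPM at day 1 and 311 to 450 CPM in controls. Keratinocyte stress genes were negative for 19 of 19 on both days with 0 called, at summed levels of 2176 to 7278 CPM in controls, 1419 to 2281 CPM at day 1 and 901 to 3216 CPM at day 6. Basal keratinocyte genes were negative for 8 of 10 at day 1 and 9 of 10 at day 6, with 0 called, and summed to 7532 to 10863 CPM in controls, 6030 to 6593 CPM at day 1 and 5779 to 7793 CPM at day 6. The part of these markers in the paw values was not tested.

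Npas4, at 0.123 to 0.400 CPM in paw from 3 to 14 reads, had log2 fold changes of 0.57 ± 0.48 and 0.54 ± 0.47 against control. Controls held 3 to 6 reads of Npas4, so it passed the low-count filter only through agonist libraries, which favours positive values. With only control and day-1, or only control and day-6, libraries fitted, Npas4 did not pass that filter. Its sign is therefore not evidence of a rise. Ier2 was steady by contrast, at 113, 100.5 and 84.5 CPM in controls, 86.7, 85.5 and 86.9 CPM at day 1 and 71.6, 92.0 and 115 CPM at day 6. The brake Dusp1 was at 185, 319 and 114 CPM in controls, 180, 245 and 237 CPM at day 1 and 71.6, 294 and 417 CPM at day 6, so it followed Fos in having its lowest and highest values in the day-6 group. The brake Btg2 ranged from 87.8 to 156 CPM, and its log2 fold changes of -0.37 ± 0.17 at day 1 and -0.32 ± 0.17 at day 6 had edgeR adjusted p of 0.475 and 0.608. Over the 10 members the median log2 fold change in paw was -0.21 at day 1, with 4 positive, and -0.05 at day 6, also with 4 positive, beside medians of 0.01 and -0.01 over all genes tested. Npas4 was among the positive members on both days. With only the groups compared fitted, 9 members were tested, of which 3 were positive at day 1 and 4 at day 6. With 1 library left out in turn the median ranged from -0.36 (without control 3) to 0.07 (without control 2, 6 positive) at day 1, and from -0.34 (without day-6 library 3, 1 positive) to 0.10 (without control 2, 5 positive) at day 6, so its sign turned with single libraries.

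**Figure D2:**
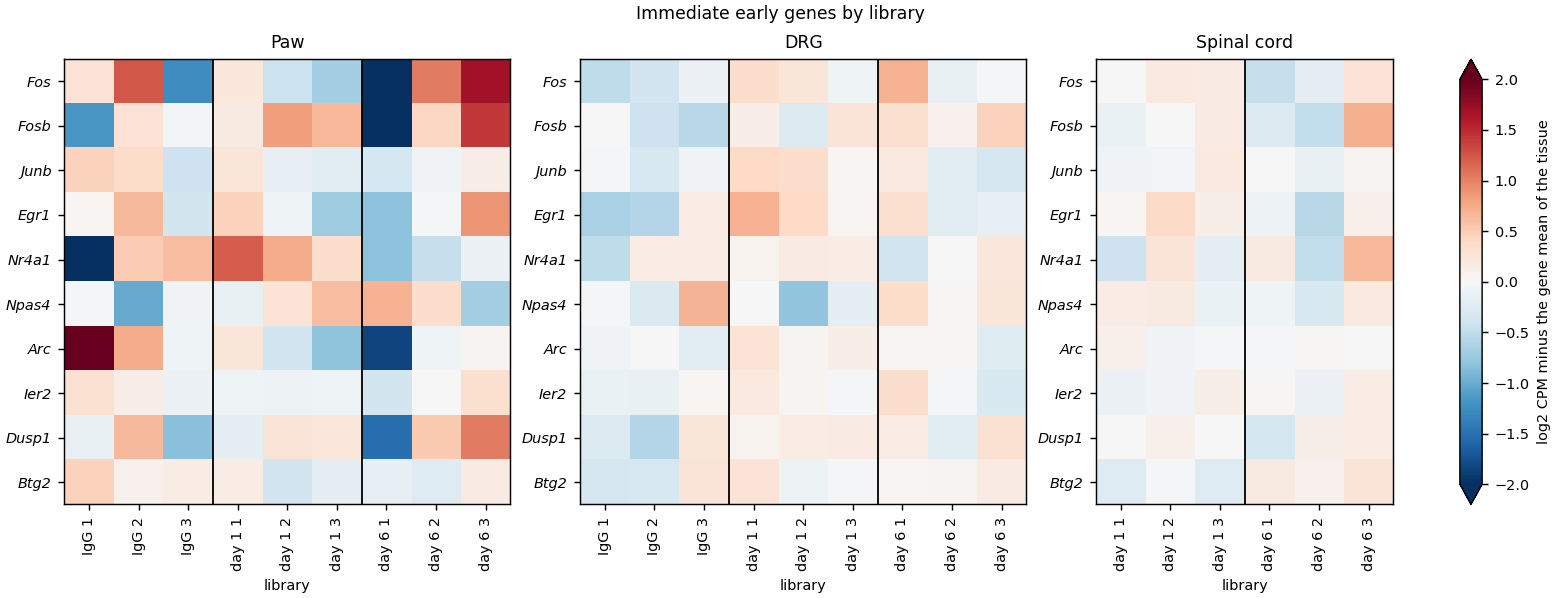
Log2 CPM minus the mean of each gene over its tissue, for the 10 genes (vertical axis) in each library (horizontal axis), with black lines between groups; the colour scale is cut at -2 and 2. In paw, day-6 library 1 is low and day-6 library 3 is high for Fos, Fosb, Egr1 and Dusp1, and paw control 1 is low for Nr4a1 and high for Arc; in DRG and cord the colours are paler.

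The DRG comparisons asked the same of the ganglia that supply the paw. None of the 10 members passed the edgeR threshold at day 1 against control, where 0.168% of 15461 genes did, at day 6 against control, where 0% did, or at day 6 against day 1, where 0.103% did. Over all genes, 557 had an unadjusted p under 0.05 at day 6 against control and DESeq2 called 2. DESeq2 and limma voom called 0 members in each, and 3, 2 and 1 members had an unadjusted p under 0.05, where 7.4%, 3.6% and 6.83% of all genes had one. At day 1, 9 of 10 members had a positive log2 fold change, with a median of 0.27, beside 49.6% of all genes and a median of 0.00. At day 6, 10 of 10 were positive against control, with a median of 0.14, beside 50.1% of all genes. The smallest were 0.00 in Nr4a1, 0.02 in Npas4, 0.03 in Junb and 0.05 in Arc. The day-1 count of positive members was 8 of 10 without DRG control 1 and 8 of 10 with the meningeal score as a covariate, a setting added after seeing the data. The day-6 count was 9 of 10 with RLE scaling and 7 of 10 with that covariate, and with 1 library left out in turn it lay between 6 of 10 (without day-6 library 1) and 9 of 10. The day-6 median then ranged from 0.08 without DRG control 1 or 2 to 0.39 without DRG control 3. Day 1 and day 6 were compared with the same 3 control libraries, so these counts are not independent of each other. Many members also varied together between DRG libraries, so a count is not one of 10 independent signs.

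Fos was at 6.72, 7.39 and 8.82 CPM in DRG controls, 12.2, 11.3 and 9.05 CPM at day 1 and 15.6, 8.62 and 9.39 CPM at day 6. All 3 day-1 values lay above all 3 controls, by a narrow margin for day-1 library 3, while at day 6 library 2 fell inside the control range. On the log2 scale Fos differed from control by 0.50 ± 0.22 at day 1 (edgeR unadjusted p = 0.0490, adjusted p = 0.669) and 0.55 ± 0.22 at day 6 (unadjusted p = 0.0348, adjusted p = 0.995). Without day-6 library 1, the one at 15.6 CPM, the day-6 value of Fos was 0.23. Junb was at 20.8, 16.9 and 20.1 CPM in controls, 27.9, 27.0 and 21.8 CPM at day 1 and 24.2, 18.1 and 16.7 CPM at day 6. Its day-1 values were all above the controls, and its day-6 values spread over the control range and beyond it on both sides. For Junb the log2 fold change was 0.41 ± 0.15 at day 1 (unadjusted p = 0.0205, adjusted p = 0.551) and -0.38 ± 0.15 from day 1 to day 6 (unadjusted p = 0.0293, adjusted p = 0.675), both from edgeR.

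Egr1 had the largest day-1 difference of the members in DRG, with 17.7, 18.4 and 30.4 CPM in controls, 44.6, 36.4 and 28.4 CPM at day 1 and 34.5, 23.8 and 24.5 CPM at day 6. Control 3 lay above day-1 library 3, so the groups overlapped. The log2 fold change was 0.71 ± 0.27 (edgeR unadjusted p = 0.0340, adjusted p = 0.633), and without DRG control 3 it was 1.01 ± 0.23. Arc was at 6.11, 6.37 and 5.54 CPM in controls and 7.76, 6.63 and 7.01 CPM at day 1, without overlap, and at 6.57, 6.59 and 5.41 CPM at day 6. Fos, Junb and Arc were thus the 3 members whose day-1 groups lay wholly above control in DRG, where 7.55% of all genes did. The difference in Arc was 0.25 ± 0.12 on the log2 scale (edgeR adjusted p = 0.711).

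Fosb was at 1.83, 1.38 and 1.26 CPM in controls, 2.02, 1.52 and 2.21 CPM at day 1 and 2.30, 1.97 and 2.54 CPM at day 6, which was 38 to 80 reads per library. Its day-6 values lay wholly above control, the 1 member of 10 of which this was true, where 5.16% of genes did so. The log2 fold change of Fosb at day 6 was 0.62 ± 0.22 (edgeR unadjusted p = 0.0174, adjusted p = 0.995). Nr4a1, the most abundant member per length in DRG, was at 60.3, 95.5 and 95.5 CPM in controls, 89.9, 95.9 and 95.5 CPM at day 1 and 65.4, 86.1 and 101 CPM at day 6. The 2 lowest values came from control 1 and day-6 library 1, and the groups overlapped. Without DRG control 1 the log2 fold change of Nr4a1 moved from 0.16 ± 0.21 to -0.03 ± 0.15 at day 1.

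Of the remaining members, Dusp1 was at 16.8 to 30.0 CPM in DRG controls and 26.7 to 28.3 CPM at day 1, with a log2 fold change of 0.29 ± 0.20. Ier2 at 0.15 ± 0.15 and Btg2 at 0.15 ± 0.16 had day-1 differences of about their SE. Npas4 was the exception in sign at day 1, at -0.48 ± 0.35, and at -0.12 without DRG control 3, the library with 29 reads of it. It was also the 1 member of 10 that lay wholly higher at day 6 than at day 1, where 6.01% of genes did, at 0.50 ± 0.34 from 11 to 26 reads per library. That separation was narrow, since the lowest day-6 value of Npas4 was 0.590 CPM and the highest day-1 value 0.587 CPM, both from 18 reads. Arc was the 1 member wholly lower at day 6 than at day 1, where 6.47% of genes were, at -0.20 ± 0.12.

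Some cell type markers moved with the member levels in DRG. Meningeal and connective tissue genes were positive at day 1 for 15 of 17 tested, with 0 called, and summed to 3523 to 4741 CPM in controls, 4493 to 4724 CPM at day 1 and 3433 to 3979 CPM at day 6. DRG control 1 had the lowest score of that list, at -0.48, and day-1 library 1 the highest, at 0.34, in mean centred log2 CPM. Macrophage genes summed to 218 to 254 CPM in controls, 254 to 265 CPM at day 1 and 244 to 280 CPM at day 6, with 9 of 12 positive and 1 called at day 1. The 16 sensory neuron markers, by contrast, were positive for 4 of 16 at day 1, with a median log2 fold change of -0.08. With the meningeal score as a covariate the day-1 values were 0.27 for Fos, 0.31 for Junb and 0.44 for Egr1. Without DRG control 1 they were 0.41 for Fos, 0.46 for Junb and 0.57 for Egr1. Skeletal muscle genes summed to 111 to 6441 CPM in DRG controls, 111 to 7748 CPM at day 1 and 124 to 677 CPM at day 6. Against control they were negative for 17 of 18 at day 1 and 18 of 18 at day 6, with 0 called. With the muscle score as a covariate the members' median log2 fold change was 0.28 at day 1 and 0.24 at day 6. The part of these markers in the result was not tested beyond these fits.

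The spinal cord comparison set day 6 against day 1. None of the 10 members passed the edgeR threshold, where 0% of 15096 genes did. Over all genes 1464 (9.7%) had an unadjusted p under 0.05, as did 1 member, and DESeq2 called 64 genes, of which 0 were members. Leaving out day-6 library 2 took the number of genes called from 0 to 818, again with 0 members. The median log2 fold change of the members was -0.02, with 5 positive and 5 negative.

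Btg2 had the smallest p of the members in cord. It was at 15.3, 18.1 and 15.3 CPM at day 1 and 20.8, 19.4 and 21.9 CPM at day 6, with every day-6 library above every day-1 library. It was the 1 member of 10 wholly higher at day 6, where 8.17% of genes were. From day 1 to day 6 Btg2 differed by 0.35 ± 0.10 on the log2 scale (edgeR unadjusted p = 0.00762, adjusted p = 0.463), and the smallest adjusted p for Btg2 over 12 alternative settings was 0.0546, without day-6 library 2.

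Arc was the steadiest member in cord, at 45.8, 40.5 and 41.8 CPM at day 1 and 42.1, 43.5 and 42.9 CPM at day 6, a log2 fold change of 0.00 ± 0.07. Npas4, the factor tied to calcium entry in neurons, was at 12.8, 13.1 and 10.6 CPM at day 1 and 10.9, 9.46 and 13.3 CPM at day 6, a log2 fold change of -0.12 ± 0.15. The 2 neuronal genes therefore differed between the days by less than 2 SE. Egr1 was at 63.8, 81.1 and 67.4 CPM at day 1 and 58.2, 42.2 and 66.9 CPM at day 6, with day-6 library 2 the lowest and a narrow overlap between the groups. Its log2 fold change was -0.35 ± 0.18 (edgeR adjusted p = 0.547) and -0.19 ± 0.11 without that library, while with the meningeal score as a covariate Egr1 was at -0.53 ± 0.09 (adjusted p = 0.123).

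Fos was at 26.0, 30.1 and 29.3 CPM at day 1 and 19.0, 23.2 and 31.8 CPM at day 6 in cord. Day-6 library 3 was the highest and day-6 library 1 the lowest of the 6, so day 6 enclosed day 1, as it did for 6 of 10 members, the others being Fosb, Nr4a1, Npas4, Ier2 and Dusp1. Fosb, at 1.85 to 4.23 CPM, had a log2 fold change of 0.03 ± 0.32, and Nr4a1, at 21.3 to 47.6 CPM, one of 0.28 ± 0.33. Junb, Ier2 and Dusp1 differed between the days by -0.05 ± 0.12, 0.04 ± 0.13 and -0.05 ± 0.13. Spinal neuron markers were all detected, 12 of 12, with summed levels of 5023 to 5569 CPM at day 1 and 4660 to 5818 CPM at day 6. Skeletal muscle genes summed to 290 to 493 CPM at day 1 and 237 to 1408 CPM at day 6, and meningeal genes to 731 to 1338 CPM and 786 to 1914 CPM. The part of the muscle genes in the cord values was not tested.

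**Figure D3:**
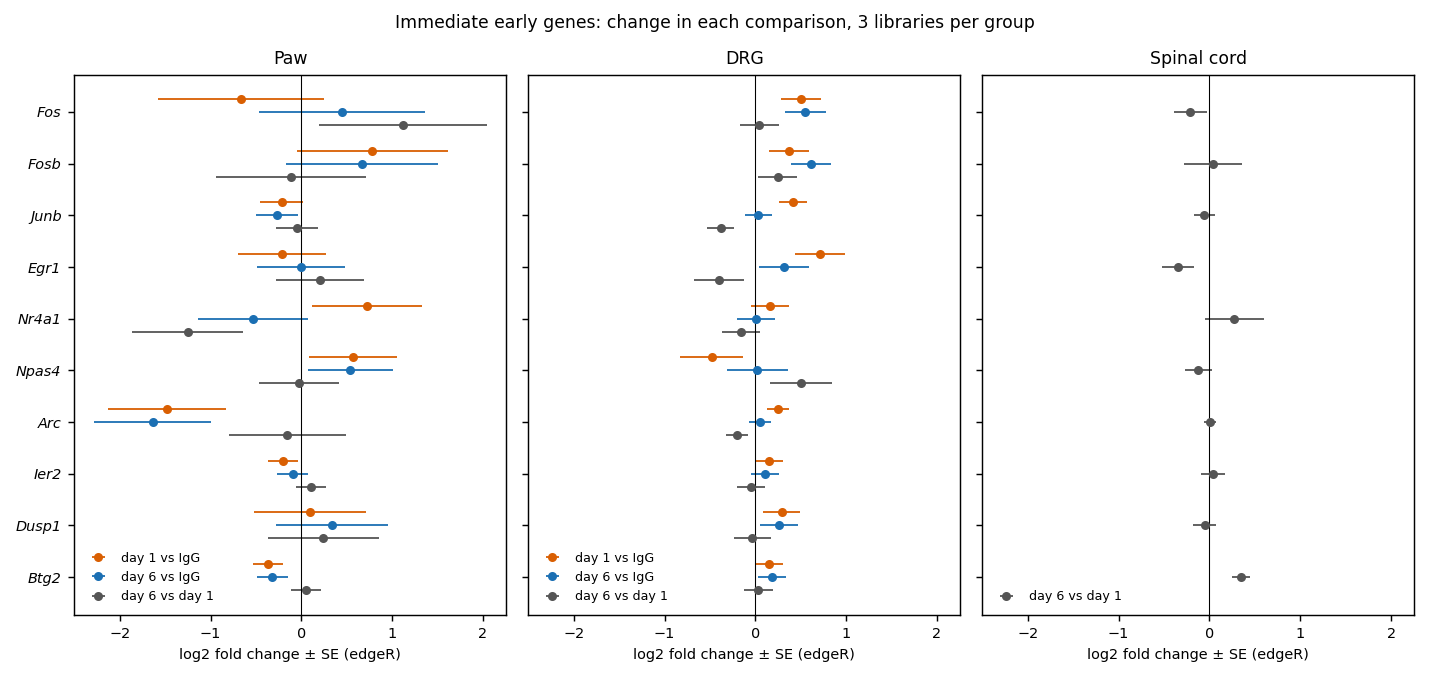
Log2 fold change with its SE (horizontal axis) of the 10 genes (vertical axis) in paw, DRG and spinal cord, from the edgeR fits with 3 libraries per group. The error bars are widest in paw, up to 0.92 for Fos, and narrowest in cord, down to 0.07 for Arc. In DRG 9 of 10 day-1 points and 10 of 10 day-6 points lie to the right of 0, with Nr4a1 at 0.00 on day 6. These points share 3 control libraries and are not independent. Of the 10 genes, 0 passed the threshold in any comparison.

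The change in paw was set against that in DRG in 1 fit of 18 libraries. No member passed the edgeR threshold for the difference at day 1, where 0% of 16461 genes did and 1594 (9.68%) had an unadjusted p under 0.05, with 59 called by DESeq2, or at day 6, where 0.498% of genes did and 7.73% had an unadjusted p under 0.05. Arc had the smallest p of the members on both days, with a paw minus DRG difference of -1.73 ± 0.68 at day 1 (edgeR unadjusted p = 0.0220, adjusted p = 0.449) and -1.69 ± 0.68 at day 6 (adjusted p = 0.504). Without paw control 1 these were -0.86 ± 0.54 and -0.78 ± 0.54 for Arc. For Junb the difference at day 1 was -0.63 ± 0.30, for Egr1 -0.93 ± 0.58 and for Fos -1.17 ± 1.02. The day-6 against day-1 change in cord minus that in DRG, fitted to 12 libraries, also gave 0 members, where 0.0125% of 15966 genes passed and 9.37% had an unadjusted p under 0.05. The largest member difference was in Npas4, at -0.65 ± 0.29 (edgeR unadjusted p = 0.0430, adjusted p = 0.528). A member that was not called may still differ between tissues, since the SE of these differences reached 1.02 for Fos.

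The spread between libraries of 1 group was wider in paw than in DRG or cord for 9 of 10 members, and so was the median over all genes. The SD within groups, pooled over the tissue on the log2 CPM scale, was 1.40 for Fos, 1.28 for Fosb, 0.92 for Arc, 0.91 for Nr4a1, 0.90 for Dusp1 and 0.66 for Egr1 in paw, beside a median of 0.21 and a 95th percentile of 0.90 over all genes tested. The 4 members Fos, Fosb, Arc and Nr4a1 lay above that percentile, and 10 of 10 lay above the median. In paw 6 of 10 members differed by more than 2-fold between libraries of the control group, as did 6 of 10 in the day-6 group and 2 of 10 in the day-1 group. The largest such ratio was 15.7, for Fosb at day 6.

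In DRG the SD within groups ran from 0.13 for Arc to 0.36 for Egr1, beside a median of 0.11 over all genes, and 10 of 10 members lay above that median and 0 of 10 above the 95th percentile of 0.55. No member differed by more than 2-fold within a DRG group. In cord 6 of 10 members lay above the median of 0.13, with Nr4a1 at 0.48 and Fosb at 0.45 the widest. Arc at 0.07 was among the steadier genes of the cord, where 16.3% of genes had a lower SD. Npas4, from 11 to 29 reads, and Fosb, from 38 to 80 reads, had the fewest reads of the members in DRG.

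**Figure D4:**
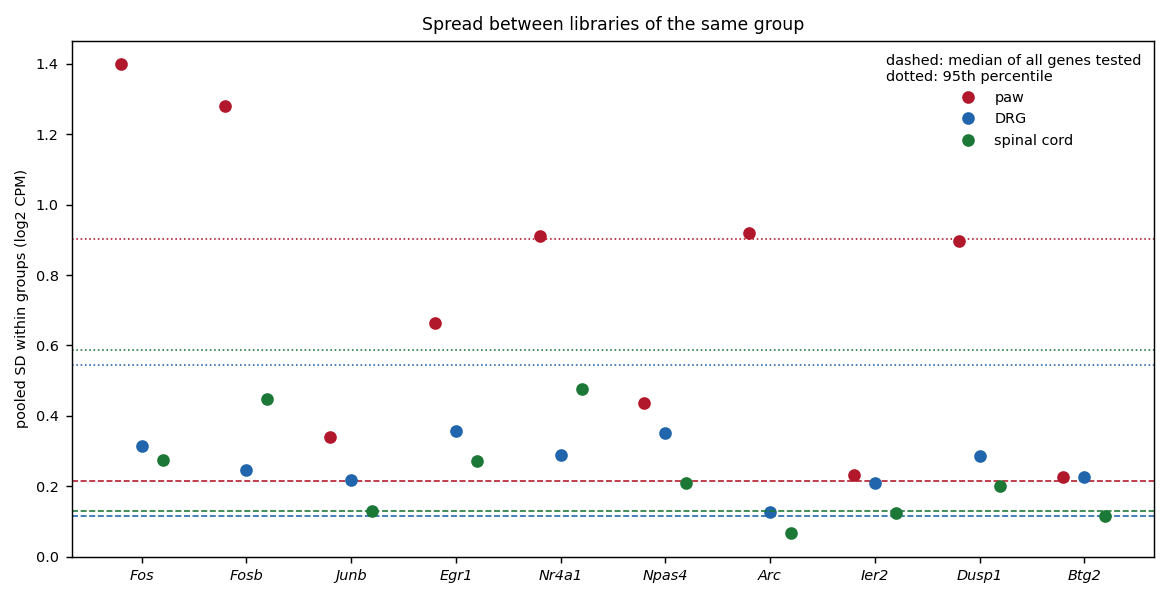
SD within groups on the log2 CPM scale (vertical axis, pooled over the groups of a tissue) for the 10 genes (horizontal axis) in paw (red), DRG (blue) and spinal cord (green). Dashed lines give the median and dotted lines the 95th percentile of all genes tested in the tissue; Fos at 1.40 and Fosb at 1.28 in paw stand highest, and Arc at 0.07 in cord lies lowest.

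Many pairs of members, though not all, varied together between libraries. In paw the Pearson correlation of log2 CPM over 9 libraries was 0.90 for Fos and Dusp1, 0.88 for Fos and Egr1 and 0.84 for Fosb and Dusp1, and 30 of 45 pairs were positive, with a median of 0.44. The libraries share their normalisation, and after the group means were removed the correlation of Fos and Dusp1 was 0.94. In DRG Fos and Egr1 had 0.85, and 35 of 45 pairs were positive over 9 libraries, with a median of 0.25. In cord Junb and Ier2 had 0.87, and 31 of 45 pairs were positive over 6 libraries, with a median of 0.29. The members differed in how far they followed the rest: in paw the correlation with the mean of the other 9 members was 0.87 for Dusp1 and 0.84 for Fos, but 0.22 for Btg2, 0.06 for Nr4a1 and -0.77 for Npas4, the gene with 3 to 14 reads.

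The genes whose levels most resembled the mean of the members were named by their Pearson correlation with it, and they are the extremes of a large number of genes compared over few libraries. In paw, of 15277 genes over 9 libraries, they were Pigr at 0.94, Psca at 0.88, Usp39 at 0.88, Ncs1 at 0.87 and Lrig3 at 0.87. In DRG they were Tox3 at 0.97, Mdk at 0.95, Med19 at 0.95, Zfp362 at 0.95 and Arl5c at 0.94. In cord, over 6 libraries, Ints1, Spen, Tmco7, Cul9 and Extl3 were between 0.988 and 0.996. The lists have no gene in common between tissues.

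Wider gene groups of the same pathway were described by their counts: 19 further immediate early transcription factors, 21 effectors, 15 brakes and 25 upstream kinases and factors. In paw edgeR called none of them in the 3 comparisons. Unadjusted p under 0.05 were found for 3 transcription factors and 2 upstream genes at day 1, and for 3 transcription factors, 1 effector and 1 upstream gene at day 6 against control, where 10.6% and 9.74% of all genes had one. From day 1 to day 6 there were 3 transcription factors, 1 brake and 4 upstream genes, where 14% of all genes had one. At day 1 in paw the genes with the smallest p were the nuclear receptor gene Nr4a2, at 0.69 ± 0.22, the AP-1 partner gene Maff, at 0.41 ± 0.13, and Elk4, a partner of serum response factor, at 0.34 ± 0.11 (edgeR adjusted p 0.390, 0.392 and 0.393). Nr4a2 was at 5.07, 8.88 and 8.29 CPM in controls, 12.6, 13.5 and 9.79 CPM at day 1 and 7.06, 6.22 and 7.11 CPM at day 6, so its day-1 values were above all others. At day 6 against control the AP-1 gene Fosl1 had the smallest p in paw, at -2.07 ± 0.50 (edgeR adjusted p = 0.138), with 14.1, 8.88 and 3.22 CPM in controls and 1.17, 2.39 and 2.67 CPM at day 6. Cebpd and Gadd45g followed at -0.86 ± 0.25 and -0.79 ± 0.23. Under DESeq2 Fosl1, Cebpd and Gadd45g passed, with adjusted p of 0.00201, 0.0404 and 0.0467, in a comparison where DESeq2 called 509 of 15287 genes. From day 1 to day 6, Elk4 at -0.46 ± 0.11, Nr4a2 at -0.82 ± 0.22 and the phosphatase gene Dusp4 at -0.57 ± 0.20 had the smallest p, with edgeR adjusted p of 0.0980, 0.143 and 0.250. DESeq2 passed Elk4 and Nr4a2 at 0.00711 and 0.0113, and it called 737 of 15287 genes there.

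In DRG 2 of 15 brakes rose at day 1, and 0 of 17 tested transcription factors, 0 of 21 effectors and 0 of 25 upstream genes were called, beside 0.162% of all genes called higher. At an unadjusted p under 0.05 there were 6 of 15 brakes, 3 of 17 transcription factors, 6 of 21 effectors and 1 of 25 upstream genes, where 7.4% of all genes had one. The lists were chosen with earlier results of these data known, so these counts are a description and not a test of an excess. Zfp36l1, which promotes decay of AU-rich mRNAs, rose from 37.2, 38.1 and 33.0 CPM in controls to 58.3, 52.4 and 46.0 CPM at day 1, with 45.1, 43.3 and 42.3 CPM at day 6. Spry4, an inhibitor of receptor tyrosine kinase signalling, rose from 37.3, 36.5 and 36.1 CPM to 45.4, 44.3 and 49.0 CPM, with 37.5, 39.1 and 37.6 CPM at day 6. Neither overlapped its controls at day 1. On the log2 scale the differences were 0.53 ± 0.08 for Zfp36l1 and 0.33 ± 0.05 for Spry4, with edgeR adjusted p of 0.0452 and 0.0454. Both calls lie close to the threshold: with 1 library left out in turn, Zfp36l1 passed in 1 of 6 fits and Spry4 in 0 of 6, with edgeR adjusted p up to 0.152 and 0.178, while the log2 fold changes stayed between 0.44 and 0.61 and between 0.28 and 0.36. With the meningeal score as a covariate the adjusted p were 0.169 for Zfp36l1 and 0.109 for Spry4, and with only the control and day-1 groups fitted they were 0.134 and 0.133. Of the 15 brakes, 12 had a positive log2 fold change at day 1, with a median of 0.19.

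At day 6 in DRG Zfp36l1 was at 0.27 ± 0.08, Elk4 at -0.90 ± 0.28 and Klf10, a transcription factor gene, at 0.22 ± 0.08, and their edgeR adjusted p was 0.995. From day 1 to day 6 Spry4 was at -0.28 ± 0.05 (edgeR adjusted p = 0.119, and 0.00650 in DESeq2), Cebpb at -0.60 ± 0.17 and Cebpd at -0.62 ± 0.18. In that comparison DESeq2 called 105 of 15461 genes. Cebpd was at 13.9, 13.5 and 14.6 CPM in DRG controls, 18.9, 25.3 and 23.7 CPM at day 1 and 10.3, 16.6 and 17.4 CPM at day 6, so day 1 lay above both other groups. In cord edgeR called none of the wider genes, and 2 transcription factors, 6 effectors, 2 brakes and 3 upstream genes had an unadjusted p under 0.05, where 9.7% of all genes did. Maff was at -0.72 ± 0.18, Gadd45g at -0.42 ± 0.11 and Errfi1, an inhibitor of the EGF receptor, at -0.42 ± 0.11, with groups that did not overlap between the days and an edgeR adjusted p of 0.463 for each. Without cord day-6 library 2 Maff and Gadd45g passed, at edgeR adjusted p of 0.0475 and 0.0453, in a fit that called 818 genes. In the tests of the difference between tissues none of the wider genes passed in edgeR. The smallest p were in Cebpd at -1.16 ± 0.34 for paw minus DRG at day 1 and in Zfp36l1 at 0.60 ± 0.14 for cord minus DRG. For Zfp36l1 DESeq2 gave an adjusted p of 0.0353 and limma voom 0.0334, where they called 44 and 27 of 15966 genes. For paw minus DRG at day 6 the smallest p were in Egr4 and Fosl1, whose values are not given, and Cebpd followed at -0.94 ± 0.34 (edgeR adjusted p = 0.419). Egr4 did not pass the filter on low counts in paw or in DRG taken alone. Fosl1 passed it in paw and not in DRG, where it had 3 to 10 reads per library.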

How the data were processed

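Stranded polyadenylated RNA libraries (24) were prepared from 500 ng of total RNA and read for 50 bp from 1 end, per the labels' protocols. Each library came as a deposited table of raw counts of reads per gene, without normalization. The submitters' processing notes name HTSeq, TopHat2, bcl2fastq and the mm9 build; their versions, the annotation and strand setting are not given in the sources used here. The 5 HTSeq summary lines were left out of library sizes. Depth was 15685843 to 41037458 counts per library.

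Each tissue was fitted on its own with edgeR 4.0.16 (R 4.3.3, TMM, filterByExpr, robust quasi-likelihood F test, 2-sided), with all groups of the tissue in 1 fit and Benjamini-Hochberg adjustment over all genes tested, at a threshold of 0.05. Differences between tissues were interaction terms. CPM use TMM library sizes, log2 CPM a prior count of 2, and lengths for RPKM come from GENCODE M21, which is not the build of the counts. Scores are mean centred log2 CPM over a list. Errors are SD for CPM and SE for log2 fold changes. The fits were tested on simulated data. Of 24 replicate pairs 0 were identical. Alternatives were RLE size factors, no filter, DESeq2 1.42.0, limma voom 3.58.1, the replicate number as a block, only the groups compared, marker scores as covariates, and each library left out. The members, gene lists and naming rule were chosen with earlier results of these data known. The rule named all 10 members, the wider genes past the threshold or, where none passed, the 3 with the smallest p, and the 5 genes most like the members' mean.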

Additional observations from a re-analysis of the deposited data

How the results depend on the processing

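The number of members called was 0 in all 10 comparisons and stayed 0 in all 144 recomputed counts, over 8 settings other than leave-outs and each library left out in turn, including the replicate block (0 members called). Of 1436 recomputed member fold changes, 1401 moved by less than 1 SE, 35 by more, and 0 were called. Counts over all genes moved far more: from 1 to 199 (DESeq2) in paw at day 1, from 108 to 509 (DESeq2) and 0 (only the groups compared) at day 6, from 157 to 737 (DESeq2) and 705 (limma voom) from day 1 to day 6, from 26 to 131 (DESeq2) and 11 (only the groups compared) in DRG at day 1, and from 16 to 105 (DESeq2) and 27 (no filter) in DRG from day 1 to day 6. With 1 library left out they ranged from 0 to 155, 0 to 141, 8 to 35 and 1 to 24 in the comparisons of paw at day 6, paw between days, DRG at day 1 and DRG between days. The cause was not tested. Replicate numbers were not treated as pairs: same-numbered libraries correlated above 0.1 in 3 of 9 pairs in paw, 2 of 9 in DRG and 0 of 3 in cord, and in 4 of 18 tests in paw, 3 of 18 in DRG and 0 of 6 in cord a library correlated best with its own number. The replicate block gave 29 genes called in DRG at day 1 against 26, and 0 against 1 in paw at day 1. Groups of 3 and the spread in paw limit what could be called, since the SE of a log2 fold change reached 0.92 for Fos.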

Other observations

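Member scores, the mean centred log2 CPM of the 10 genes, had a Pearson correlation over 9 DRG libraries of 0.78 with the meningeal score and 0.69 with the macrophage score. It was -0.71 with the score of the 6 genes of the oligodendrocyte list tested there, and -0.48 with the Schwann and satellite cell score. The name of the list does not show that oligodendrocytes were present in DRG. In paw, over 9 libraries, the highest correlation with a cell type score was 0.52, for basal keratinocyte genes, and that with skeletal muscle was -0.07. In cord, over 6 libraries, the scores of 17 further immediate early transcription factors and of 13 clock genes correlated with the member score at 0.97 and 0.76, those of effectors, glucocorticoid-responsive genes and sensory neuron genes at 0.79, 0.74 and 0.71, and that of oligodendrocyte genes at -0.78. The libraries share depth and normalisation with both measures, and these values are descriptions. Summed levels of the 10 members ran from 475 to 1345 CPM within the paw day-6 group, from 654 to 1165 CPM within paw controls and from 773 to 940 CPM at day 1. In DRG they were 153 to 217 CPM in controls, 214 to 238 CPM at day 1 and 190 to 213 CPM at day 6.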
